A study of Mus musculus with 46 samples.

Results

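The comparison described here sets infarct tissue of MRL/MpJ mice (MRL) against infarct tissue of C57BL/6J mice (C57) at day 1, with the left coronary artery tied off at surgery. Its members are the 4 arrays titled as MRL infarct at day 1 and the 4 titled as C57 infarct at day 1. They are 8 of the 46 arrays of the series and were described over the 22626 probe sets that are not Affymetrix controls. All mice were males of 15 to 20 weeks, both strains are inbred, and the labels give no transgene, gene deletion or test drug, only isoflurane at surgery and buprenorphine after it. The C57 mice carried the same ligation as the MRL mice. The tissue was punched from the left ventricle and holds the infarct with its border, so dying, surviving and invading cells were measured together. In such bulk tissue fewer cells of a type and less RNA per cell cannot be told apart. Other groups enter where stated. They are the matching region of unoperated hearts at day 0 (4 MRL and 3 C57 arrays), infarct tissue at day 5 (4 of each strain), and the remaining left ventricle, called noninfarct, at day 1 (4 of each strain). The labels call the arrays biological replicates, and no label ties an infarct array to the noninfarct array of its heart. The comparison asks how the strains differ in the first day of the injury.

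On the first day after a coronary occlusion, heart muscle in the blocked territory dies and releases signals that activate the cells around it. Neutrophils and then monocytes enter, interleukin-1 and toll-like receptor signalling is active, proteases open the matrix, and surviving heart muscle cells switch on stress genes such as natriuretic peptides. MRL mice are known for closing ear punch wounds with little scar. Inbred strains also differ in gene sequence, and the H2 genes of the major histocompatibility complex (MHC) are among the most variable.

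Values are log2 intensities per probe set, and every difference is MRL minus C57 on that scale with its standard error (SE) from the fit. The SE rests on a spread shared by all groups of the fit, days 0 and 5 included. Array medians ran from 4.26 to 4.48. Correlations between replicates ran from 0.925 to 0.972 in MRL and from 0.905 to 0.970 in C57. The median SD of a probe set was 0.354 in MRL and 0.385 in C57. Gapdh control probe sets, 3' end minus 5' end, gave -0.23, -0.01, 0.38 and -0.26 in MRL and -0.18, -0.19, 0.02 and 0.41 in C57. Those of beta-actin gave 1.30, 1.23, 1.11 and 1.02 in MRL and 1.38, 1.28, 1.40 and 1.50 in C57. Heart muscle markers were bright on all 8 arrays, with Myh6, the main myosin heavy chain of the adult mouse ventricle, at 15.27, 15.14, 15.5 and 15.19 in MRL and 15.35, 15.41, 14.39 and 15.13 in C57. A set of 21 probe sets that separated the strains by more than 1 on the day 0 and day 1 arrays, and so was no check of the 8 arrays it was chosen on, went against the label of 2 other libraries. The library labelled MRL day 5 infarct replicate 3 was nearer MRL on 0 of the 21, and the library labelled C57 day 5 noninfarct replicate 3 was nearer MRL on 19. The first of these enters the day 1 comparison through the shared estimate of the spread and through the filter (12834 probe sets tested with it, 12827 without). Counts of called probe sets are given with and without it, and counts of genes in lists are with it unless stated.

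Of 12834 tested probe sets, 128 (0.997%) differed between MRL and C57 in day 1 infarct tissue at a limma adjusted p under 0.05. Of these, 47 were higher in MRL (0.366%) and 81 were lower (0.631%), while the median difference over all tested probe sets was 0.001. In 116 of the 128 the MRL and the C57 arrays did not overlap, as was so for 483 of all tested probe sets (3.76%), 198 of them higher (1.54%) and 285 lower in MRL (2.22%). Without the library labelled MRL day 5 infarct replicate 3 the count was 183 (1.43%), with 65 higher (0.507%) and 118 lower (0.92%), and all 128 were among them. Fitted on the 8 arrays alone, 53 were called, 20 higher and 33 lower. Leaving out MRL replicate 1 gave 80 calls (30 higher, 50 lower), MRL replicate 2 gave 81 (39 lower) and MRL replicate 3 gave 225 (165 lower). The number lower was 51 without MRL replicate 4 and 49 without C57 replicate 2, and the number higher was 30 without C57 replicate 1. The plot of difference against level shows called probe sets on both sides of 0.

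**Figure D1:**
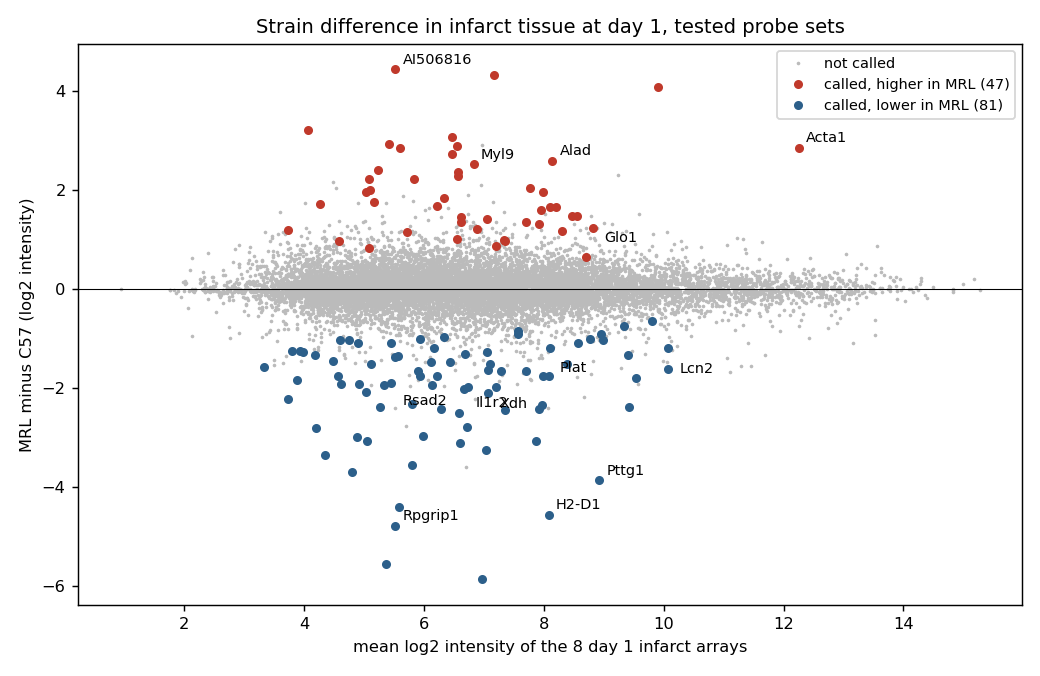
Difference between the strains (MRL minus C57, log2 intensity) against the mean log2 intensity, with 1 point for each of the 12834 tested probe sets. The 47 probe sets called higher in MRL and the 81 called lower are marked in colour, and grey points are not called.

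By gene, with the brightest tested probe set standing for each, 68 of 7512 genes were called, 30 higher and 38 lower in MRL. Counts of genes of a list below are of these probe sets, and calls of other probe sets of the list's genes are given beside them. The genes with the largest differences included a skeletal muscle actin, H2 genes of antigen presentation and a heme synthesis enzyme. Of the 40 called genes named below, 23 remained called whichever of the 8 arrays was left out, and none changed sign. Those runs kept the day 0 and day 5 arrays in the fit. On the 8 arrays alone 19 of the 39 tested were called. Glo1 (limma adjusted p = 0.135), Wdr48 (0.234), Nfia (0.0836) and Rps4l (0.0848) were among the 23 but not called there. The same held for Il1r2, Plat and Mmp3, whose values are given below.

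**Figure D2:**
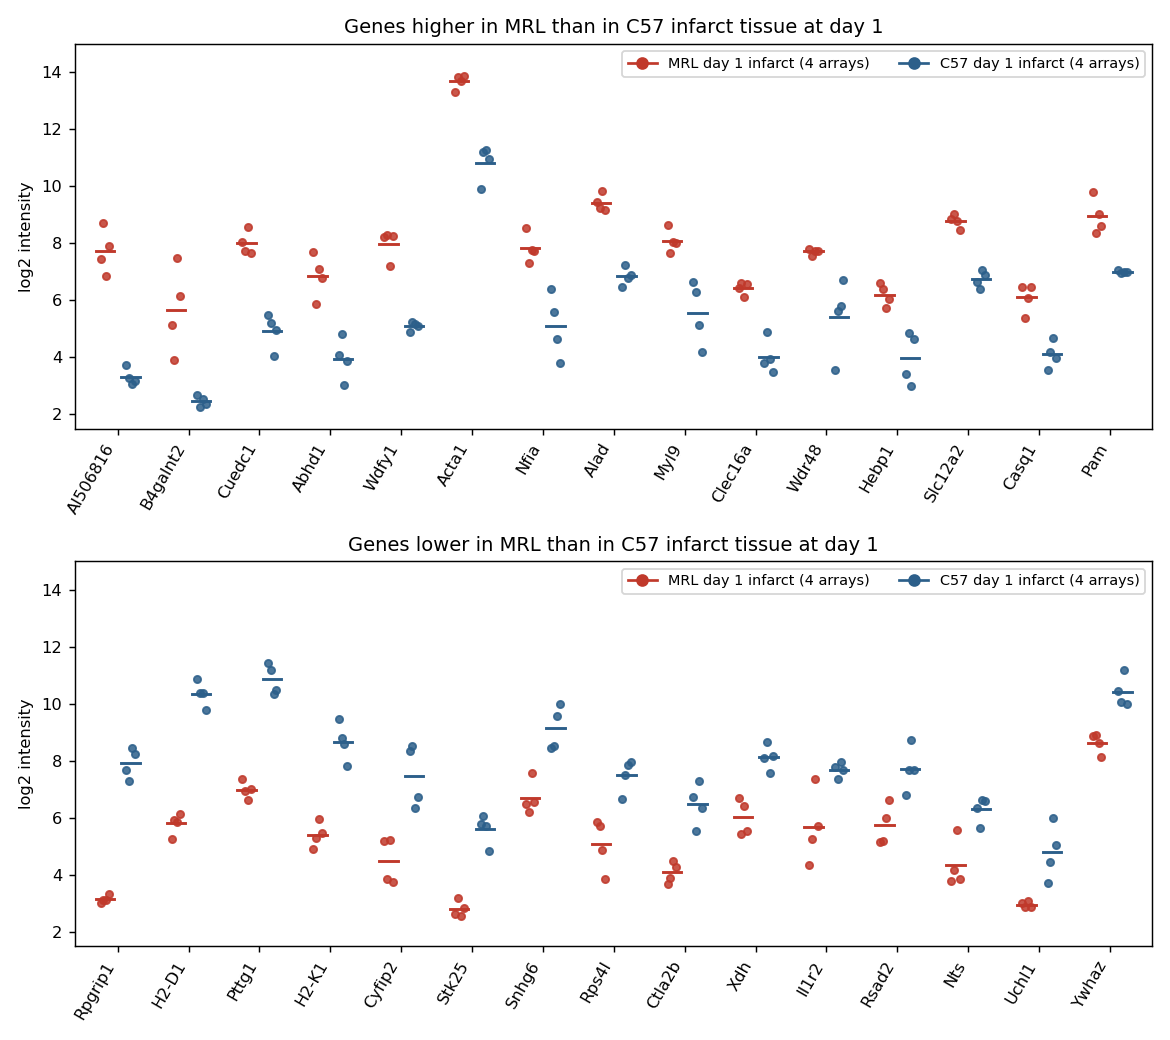
Log2 intensity of the 15 genes highest and the 15 genes lowest in MRL relative to C57, with 1 point per array and bars at the means of 4 arrays, MRL left of C57. The genes were chosen for arrays that do not overlap, so the gap between the strains follows from the choice.

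Lcn2, Il1r2 and Myd88, which act in inflammation, were lower in MRL. Lcn2, which encodes the iron-scavenging lipocalin 2 of neutrophils and inflamed tissue, had 9.12, 9.1, 9.25 and 9.62 in the MRL arrays, against 10.36, 11.05, 10.6 and 11.56 in the C57 arrays. All MRL arrays lay below all C57 arrays, with a difference of -1.62 ± 0.33 (SE, n = 4 each, limma adjusted p = 0.0155), which is 3.08-fold higher in C57. In unoperated hearts Lcn2 averaged 2.84 in MRL and 2.70 in C57. Il1r2, the decoy receptor that captures interleukin-1, had 4.34, 5.26, 7.35 and 5.71 in the MRL arrays, against 7.78, 7.35, 7.96 and 7.67 in the C57 arrays. MRL replicate 3 came level with the lowest C57 array after rounding and the other MRL arrays lay below it, with a difference of -2.03 ± 0.37 (limma adjusted p = 0.00594). Myd88, the adaptor of toll-like and interleukin-1 receptors, had 2.42, 2.48, 2.63 and 2.63 in the MRL arrays, against 3.08, 3.49, 4.53 and 5.35 in the C57 arrays. Its groups did not overlap (-1.57 ± 0.33, limma adjusted p = 0.0177), but both group means were below every array median. On the 8 arrays alone the limma adjusted p was 0.0505 for Lcn2 and 0.297 for Il1r2. The Lcn2 call was lost without MRL replicate 1 or 2 or C57 replicate 2 or 4 (adjusted p up to 0.0656), and the Myd88 call without MRL replicate 1 or 2 or C57 replicate 3 (up to 0.0573).

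Most chemokines and genes of the interleukin and TNF system were not called, and some ranged widely between hearts of 1 strain. Of 27 tested genes of the interleukin and TNF system, 0 were called higher and 2 lower, with a median difference of 0.03, beside 30 higher, 38 lower and a median of 0.00 over all 7512 genes. Another probe set of the list, of the macrophage growth factor Csf1, was called higher (0.97 ± 0.23, limma adjusted p = 0.0476), while the brightest Csf1 probe set was not called (0.34). Il6, a cytokine that drives the acute phase response, had 4.6, 4.76, 10.95 and 8.43 in MRL and 9.46, 7.94, 7.46 and 7.94 in C57. The MRL arrays held both its lowest and its highest value (-1.01 ± 1.02, limma adjusted p = 0.906). Il1b, which encodes interleukin-1 beta, had 5.74, 7.11, 9.88 and 8.63 in MRL and 7.54, 7.93, 8.35 and 7.43 in C57, again with the C57 arrays inside the MRL range (0.03 ± 0.66). Of 17 tested chemokines 0 were called, with differences from -2.42 to 1.44 and a median of -0.14. An unadjusted limma p under 0.05 was found for 9 of the 17, beside 647 of all 7512 genes. Of the 17 differences 7 were above 0. Among all 24 tested probe sets of chemokines 1 was called higher and 1 lower. The one higher carries the symbols of several Ccl21 genes, chemokines of lymphatic vessels, and so is assigned to none (2.23 ± 0.38, limma adjusted p = 0.00368). The one lower was of the macrophage chemokine Ccl6 (-1.53 ± 0.34, limma adjusted p = 0.0319), whose brightest probe set was not called (-0.76). Ccl2, which recruits monocytes, had 8.06, 8.98, 10.23 and 9.48 in MRL and 8.13, 8.41, 10.49 and 9.8 in C57, and its groups overlapped. Ppbp, a platelet chemokine, had 5.07, 7.42, 3.69 and 6.79 in MRL and 7.13, 9.03, 8.07 and 7.68 in C57. Its groups overlapped, and its difference of -2.23 ± 0.66 had a limma adjusted p of 0.136. Of 6 chemokine receptors, 11 adhesion molecules and 12 complement genes tested, 0 were called, with medians of 0.09, -0.17 and -0.12.

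The proteases Plat and Mmp3 were lower in MRL. Plat, the tissue plasminogen activator that starts the lysis of fibrin, had 6.86, 6.17, 8.32 and 7.45 in the MRL arrays, against 9.39, 9.0, 8.53 and 8.91 in the C57 arrays. The groups did not overlap, and the difference was -1.76 ± 0.31 (limma adjusted p = 0.00516), 3.38-fold higher in C57. Mmp3, the matrix protease stromelysin-1, had 4.1, 3.9, 4.95 and 4.45 in the MRL arrays, against 4.94, 6.71, 5.6 and 6.24 in the C57 arrays. The highest MRL array lay just above the lowest C57 array, with a difference of -1.52 ± 0.29 (limma adjusted p = 0.00943). Both calls held without any 1 of the 8 arrays, but on the 8 arrays alone the limma adjusted p was 0.214 for Plat and 0.281 for Mmp3. These were the 2 called of 26 tested proteases and inhibitors (median -0.17), and a dimmer probe set of Adamts4 was also called lower. Plat and Lcn2 were the 2 called of 17 tested acute phase and fibrinolysis genes (median -0.24). Timp1, a metalloproteinase inhibitor, had 10.67, 11.03, 8.77 and 11.38 in MRL and 8.27, 10.04, 11.17 and 10.67 in C57, with overlapping groups (0.42 ± 0.56).

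The promoter of Mmp3 is shown because genes of this protease family are known targets of AP-1 factors. It holds 300 bases across the start site, from RefSeq's GRCm38.p6, 5' to 3', with the searched motifs TGANTCA (at -46 from the start site) and TATAAA (at -7) in capitals.
Mmp3, chr9:7445572-7445871, plus strand: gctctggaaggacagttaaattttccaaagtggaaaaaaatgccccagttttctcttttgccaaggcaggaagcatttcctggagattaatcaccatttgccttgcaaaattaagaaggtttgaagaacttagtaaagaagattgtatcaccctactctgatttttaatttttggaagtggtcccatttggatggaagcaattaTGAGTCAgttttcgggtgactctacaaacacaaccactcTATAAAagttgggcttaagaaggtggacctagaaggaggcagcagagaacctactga
Searched on both strands, TGANTCA was in 2565 of 32851 promoters of this length (7.81%) and TATAAA in 4473 (13.6%). A match is a run of letters and was not tested as a binding site.

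Collagens were not called, and 2 fibroblast genes were. Of 19 tested collagens 0 were called, with a median difference of 0.44 and differences from -0.48 to 1.50. Col1a1, the main chain of scar collagen, had 10.99, 10.28, 8.92 and 8.85 in MRL and 8.24, 8.9, 9.6 and 8.87 in C57, and Col3a1, the chain of early wound collagen, had 11.62, 11.09, 8.88 and 9.93 in MRL and 8.69, 8.95, 11.18 and 10.26 in C57. In both genes MRL replicate 1 was highest of the 8 arrays, and the groups overlapped (limma adjusted p = 0.567 and 0.874). Col1a2 (1.12 ± 0.36, limma adjusted p = 0.194) was called higher without MRL replicate 3 (1.41, limma adjusted p = 0.0462). Mfap5, a protein of elastic microfibrils, had 8.52, 7.75, 8.23 and 8.57 in the MRL arrays, against 8.77, 9.04, 9.76 and 9.55 in the C57 arrays. The strains did not overlap (-1.01 ± 0.24, limma adjusted p = 0.0477), and Mfap5 was the 1 called of 25 wound matrix genes. Dpep1, a membrane dipeptidase on the fibroblast marker list, had 4.76, 4.92, 6.52 and 5.11 in the MRL arrays, against 7.4, 6.96, 6.49 and 7.56 in the C57 arrays, overlapping only through MRL replicate 3 (-1.77 ± 0.37, limma adjusted p = 0.0172). Mfap5 and Dpep1 were the 2 called of 17 fibroblast markers, both lower, while the list's median was 0.10. The Mfap5 call was lost without any 1 array other than C57 replicate 1 (adjusted p up to 0.173), and the Dpep1 call without any 1 of MRL replicates 1, 2 and 4 and C57 replicates 1 and 4 (up to 0.0773).

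H2-D1 and H2-K1 of MHC class I were lower in MRL by their brightest probe sets, and H2-D1 also had a probe set called the other way. H2-D1, a classical class I heavy chain, had 5.27, 5.94, 5.87 and 6.13 in the MRL arrays, against 10.89, 10.38, 10.39 and 9.79 in the C57 arrays, a difference of -4.56 ± 0.52 (limma adjusted p = 3.21e-05). H2-K1, another classical class I chain, had 4.92, 5.28, 5.97 and 5.48 in the MRL arrays, against 9.47, 8.79, 8.58 and 7.81 in the C57 arrays (-3.25 ± 0.56, limma adjusted p = 0.00394). Neither overlapped between the strains, and both differed in the same direction in unoperated hearts (-4.08 and -2.84). Tap2, a subunit of the transporter that feeds peptides to class I molecules, was higher in MRL, with 5.84, 5.32, 5.52 and 5.31 in the MRL arrays, against 4.5, 4.84, 4.61 and 4.7 in the C57 arrays (0.83 ± 0.20, limma adjusted p = 0.0468). Its call was lost without any 1 of the 8 arrays (adjusted p up to 0.16). These were the 3 called of 9 class I genes, whose median was 0.12, while 2 of the 23 tested probe sets of these genes were called higher and 7 lower. Of 6 class II genes 0 were called (median -0.31). H2-Aa, a class II chain, had 6.99, 7.42, 4.02 and 6.85 in MRL and 7.2, 6.53, 8.76 and 7.53 in C57, with MRL replicate 3 far below the rest.

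Among 31 interferon-induced genes 0 were called higher and 1 lower, with a median of -0.12. Without the library labelled MRL day 5 infarct replicate 3, Ifi202b of this list was called higher. Its difference was 2.04 (limma adjusted p = 3.33e-05, against 0.127 with that library), from a dim C57 mean of 3.51. Rsad2, the antiviral protein viperin, had 5.16, 5.18, 6.0 and 6.61 in the MRL arrays, against 6.79, 7.69, 8.72 and 7.67 in the C57 arrays. No MRL array reached a C57 array, and the difference was -1.98 ± 0.44 (limma adjusted p = 0.0302). All 3 Rsad2 probe sets were called lower in MRL, and the difference at day 0 was -2.01. The call was lost without any 1 of MRL replicates 1 and 2 and C57 replicates 2, 3 and 4 (adjusted p up to 0.113). Its promoter is shown because interferon-induced genes often carry a repeated GAAA element, with GAAA, any 2 bases and GAAA again (at -120, on the other strand), TGANTCA (at -87) and TATAAA (at -10, on the other strand) in capitals.
Rsad2, chr12:26456403-26456702, minus strand: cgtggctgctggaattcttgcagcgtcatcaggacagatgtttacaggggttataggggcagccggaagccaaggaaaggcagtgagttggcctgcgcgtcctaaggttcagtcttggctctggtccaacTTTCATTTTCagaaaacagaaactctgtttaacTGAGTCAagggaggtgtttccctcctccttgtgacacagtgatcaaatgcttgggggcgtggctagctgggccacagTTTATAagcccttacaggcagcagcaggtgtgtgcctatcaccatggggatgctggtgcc
The repeated GAAA element was in 1131 of 32851 promoters (3.44%).

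Acta1, Casq1 and Myl9, genes of skeletal or smooth muscle, were higher in MRL. Acta1, the skeletal alpha-actin that stressed heart muscle also makes, had 13.33, 13.84, 13.69 and 13.88 in the MRL arrays, against 9.9, 11.2, 11.27 and 10.97 in the C57 arrays. All MRL arrays lay far above all C57 arrays, and the difference was 2.85 ± 0.30 (limma adjusted p = 1.27e-05), 7.23-fold higher in MRL. Casq1, the calcium store protein of skeletal muscle, had 6.47, 5.39, 6.1 and 6.48 in the MRL arrays, against 3.55, 4.18, 4.69 and 3.99 in the C57 arrays (2.01 ± 0.31, limma adjusted p = 0.00135). The groups of Casq1 did not overlap either, but its C57 mean was below every array median. Myl9, the regulatory light chain of smooth muscle, had 8.64, 7.66, 8.04 and 8.0 in the MRL arrays, against 6.65, 6.29, 5.13 and 4.18 in the C57 arrays. The C57 arrays were spread widely but stayed below the MRL arrays (2.52 ± 0.52, limma adjusted p = 0.0165), and the call was lost without MRL replicate 1 or C57 replicate 4 (adjusted p up to 0.0676). Differences of the same sign stood in unoperated hearts, at 2.28 for Acta1, 1.91 for Casq1 and 1.40 for Myl9.

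The promoters of Acta1 and Myl9 are shown because actin and smooth muscle genes are known targets of serum response factor, which binds the CArG box. The CArG box is in capitals (at -73 in Acta1, at -161 in Myl9), as is TATAAA (at -7 in Acta1).
Acta1, chr8:123894726-123895025, minus strand: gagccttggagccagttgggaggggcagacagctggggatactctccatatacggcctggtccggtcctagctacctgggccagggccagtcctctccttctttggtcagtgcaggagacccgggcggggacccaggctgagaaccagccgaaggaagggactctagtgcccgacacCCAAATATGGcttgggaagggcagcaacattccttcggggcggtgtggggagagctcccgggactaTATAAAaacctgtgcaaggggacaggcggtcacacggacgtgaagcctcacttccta
Myl9, chr2:156775214-156775513, plus strand: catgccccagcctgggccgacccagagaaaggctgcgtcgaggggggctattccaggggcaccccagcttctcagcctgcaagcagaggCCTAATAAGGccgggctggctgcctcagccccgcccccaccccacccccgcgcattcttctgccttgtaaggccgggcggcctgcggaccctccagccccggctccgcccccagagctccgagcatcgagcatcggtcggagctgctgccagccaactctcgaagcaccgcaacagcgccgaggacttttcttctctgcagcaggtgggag
A CArG box was in 535 of 32851 promoters (1.63%), which says nothing of its use in these hearts. The Lcn2 promoter was searched too and held none of the 4 motifs.

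Of 18 sarcomere genes and 12 calcium handling genes 0 were called, with medians of 0.17 and 0.09. Tnnt2, cardiac troponin T, had 15.18, 15.0, 14.91 and 15.09 in MRL and 15.1, 15.12, 14.81 and 14.8 in C57, and Atp2a2, the calcium pump of the sarcoplasmic reticulum, had 14.31, 14.22, 14.33 and 14.44 in MRL and 14.58, 14.42, 13.85 and 14.09 in C57. The strains overlapped in both. Acta1 was the 1 called of 12 cardiac stress genes (median 0.14). Nppa, atrial natriuretic peptide, had 14.38, 14.63, 12.37 and 14.57 in MRL and 12.25, 12.63, 14.15 and 13.43 in C57. MRL replicate 3 was far below the other MRL arrays, so the difference was 0.87 ± 0.41 (limma adjusted p = 0.552), and without that array it was 1.41 (limma adjusted p = 0.0299). Nppb, brain natriuretic peptide, had 12.98, 13.5, 12.7 and 13.64 in MRL and 13.33, 12.83, 13.26 and 13.04 in C57, with no separation (0.10 ± 0.35). Myh7, the fetal myosin heavy chain, ranged widely, with 11.43, 9.55, 9.31 and 9.54 in MRL and 6.69, 8.13, 10.14 and 10.17 in C57 (1.17 ± 0.81, limma adjusted p = 0.784). Of the skeletal muscle list 3 genes passed the filter, Acta1, Ckm and Tnnt1, and Ckm and Tnnt1 were not called (0.43 ± 0.46 and 0.51 ± 0.26). The mean of these 3 genes was at 11.2, 11.3, 11.82 and 11.54 in MRL and 9.87, 10.53, 10.14 and 10.28 in C57, without overlap. Most of that gap comes from Acta1 (2.85), which was named for arrays that do not overlap.

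Of 24 fatty acid oxidation genes, 29 oxidative phosphorylation genes and 27 glycolysis and hypoxia genes 0 were called, with medians of -0.09, -0.09 and -0.20. Of the 56 tested probe sets of glycolysis and hypoxia genes 1 was called lower, of Pdk1, the kinase that holds back pyruvate dehydrogenase (-1.49 ± 0.35, limma adjusted p = 0.0476). Its brightest probe set differed by -1.65 (limma adjusted p = 0.052) and was called without the library labelled MRL day 5 infarct replicate 3 (limma adjusted p = 0.00081). Called genes of energy metabolism outside the lists were chosen after their values were seen: Pccb, a subunit of propionyl-CoA carboxylase, was lower (-1.75 ± 0.38, limma adjusted p = 0.0222), and Coq5, an enzyme of coenzyme Q synthesis, was higher (1.30 ± 0.32, limma adjusted p = 0.0498). A dim probe set of Uqcr10, a subunit of respiratory complex III, was lower (-3.36), while its brightest was not called (-0.27). Hif1a, the oxygen-regulated transcription factor, had 9.72, 9.91, 10.56 and 9.8 in MRL and 10.45, 10.43, 10.75 and 10.08 in C57 (-0.43 ± 0.20, limma adjusted p = 0.557). Alad, an enzyme of heme synthesis, had 9.46, 9.24, 9.84 and 9.18 in the MRL arrays, against 6.48, 7.24, 6.77 and 6.9 in the C57 arrays. No arrays overlapped (2.58 ± 0.28, limma adjusted p = 1.34e-05), and the difference was 2.45 at day 0. Glo1, which detoxifies methylglyoxal, had 9.78, 9.48, 8.94 and 9.56 in the MRL arrays, against 8.32, 8.7, 7.91 and 7.91 in the C57 arrays, and all 3 of its probe sets were called (1.23 ± 0.21, limma adjusted p = 0.00441). Alad and Glo1 were the 2 called of 39 iron, heme and antioxidant genes (median 0.01, 20 of 39 differences above 0). Hebp1, a heme-binding protein, was also higher (2.23 ± 0.53, limma adjusted p = 0.0476), and its call was lost without any 1 of 6 of the 8 arrays. Probe sets of Fech (-1.29), Mt1 (-0.94) and Prdx2 (-1.94) were called lower only without the library labelled MRL day 5 infarct replicate 3. Their limma adjusted p was then 0.0322, 0.0454 and 0.00142. Of these probe sets only that of Mt1 is the brightest of its gene. Xdh, the xanthine dehydrogenase that makes uric acid, was lower, with 6.7, 5.43, 6.42 and 5.53 in the MRL arrays, against 8.1, 8.67, 7.59 and 8.17 in the C57 arrays (-2.11 ± 0.44, limma adjusted p = 0.0165), a call lost without MRL replicate 2 or 4 or C57 replicate 2 (adjusted p up to 0.069).

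The other largest differences higher in MRL were in genes of no list used here. AI506816 had 7.46, 8.72, 6.85 and 7.92 in the MRL arrays, against 3.72, 3.26, 3.08 and 3.16 in the C57 arrays, the largest higher in MRL by the brightest probe set per gene (4.43 ± 0.41, limma adjusted p = 2.93e-06), with the C57 mean below every array median. Cuedc1, which encodes a CUE domain protein, had 8.05, 7.72, 8.59 and 7.65 in the MRL arrays, against 5.49, 5.21, 4.06 and 4.95 in the C57 arrays (3.07 ± 0.30, limma adjusted p = 3.83e-06). All arrays of both genes were apart. Wdfy1, an endosomal protein of toll-like receptor signalling, had 8.23, 8.29, 7.2 and 8.26 in the MRL arrays, against 4.89, 5.23, 5.18 and 5.11 in the C57 arrays, and Nfia, a transcription factor, had 8.55, 7.32, 7.78 and 7.72 in the MRL arrays, against 6.41, 5.58, 4.63 and 3.82 in the C57 arrays. Their differences were 2.89 ± 0.51 and 2.73 ± 0.50. Abhd1, of the alpha/beta hydrolase family, differed by 2.92, and B4galnt2, a glycosyltransferase, by 3.21. Clec16a, an endolysosomal protein of mitophagy, differed by 2.40, Wdr48, a cofactor of the deubiquitinase Usp1, by 2.29, Slc12a2, a sodium-potassium-chloride cotransporter, by 2.04, and Pam, which amidates peptide hormones, by 1.96. Igfbp5, a binding protein of insulin-like growth factors on the list of growth factors and receptors, had 9.15, 9.1, 8.96 and 8.36 in the MRL arrays, against 7.5, 7.26, 8.18 and 7.97 in the C57 arrays without overlap (1.17 ± 0.25, limma adjusted p = 0.0206). It was the 1 called of 42 growth factors and receptors (median 0.10). Its call was lost without any 1 of MRL replicates 1 and 2 and C57 replicates 1 and 2 (up to 0.0843). Frzb of that list was called higher only without the library labelled MRL day 5 infarct replicate 3 (1.19, limma adjusted p = 0.0144, against 0.127 with it). The C57 means of B4galnt2, Abhd1, Clec16a and Hebp1 also lay below every array median, so these differences are measured against dim values. The calls of B4galnt2 (adjusted p up to 0.0894) and Pam (up to 0.0623) were each lost without at least 1 array.

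Among the genes lower in MRL, Rpgrip1, a protein of the photoreceptor cilium, had 3.0, 3.1, 3.11 and 3.33 in the MRL arrays, against 7.69, 7.29, 8.46 and 8.24 in the C57 arrays, the largest by the brightest probe set per gene (-4.78 ± 0.66, limma adjusted p = 0.000368). Pttg1, the securin that holds sister chromatids together until anaphase, had 7.36, 6.94, 6.64 and 7.0 in the MRL arrays, against 11.42, 11.19, 10.34 and 10.48 in the C57 arrays (-3.87 ± 0.36, limma adjusted p = 2.93e-06). Neither overlapped between the strains, and both stood apart at day 0 (-3.46 and -4.10). Ctla2b, an inhibitor of cysteine proteases, had 3.67, 3.88, 4.49 and 4.29 in the MRL arrays, against 6.72, 5.55, 7.28 and 6.33 in the C57 arrays (-2.39 ± 0.40), against a day 0 difference of -0.52. Nts, the peptide neurotensin, had 3.77, 4.18, 5.59 and 3.87 in the MRL arrays, against 6.35, 5.64, 6.62 and 6.6 in the C57 arrays (-1.94 ± 0.38), and Uchl1, a ubiquitin hydrolase of neurons, had 3.0, 2.87, 3.08 and 2.88 in the MRL arrays, against 3.7, 4.45, 5.98 and 5.06 in the C57 arrays (-1.84 ± 0.38). In these 3 genes no MRL array reached a C57 array, and the day 0 difference of Nts was -0.06 and of Uchl1 -0.21. The calls of Nts and Uchl1 were lost without MRL replicate 1 (0.0548) and C57 replicate 4 (0.0518). Cyfip2, of the WAVE actin-nucleating complex, differed by -2.98, the kinase Stk25 by -2.80, the noncoding host transcript Snhg6 by -2.43, the ribosomal protein gene Rps4l by -2.42 and the 14-3-3 protein gene Ywhaz by -1.79. The MRL means of Rpgrip1 (3.13), Stk25 (2.80), Ctla2b (4.08) and Uchl1 (2.96) were below every array median, so these differences too are measured against dim values. The Cyfip2 call was lost without any 1 of 5 arrays and the Ywhaz call without any 1 of all 8.

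The lists of cell cycle, death and stress genes that follow held no called gene. Of 39 cell cycle genes 0 were called (median 0.10), and 18 of them were below every array median in both strains. Mki67, a marker of cycling cells, had 5.61, 3.56, 3.52 and 3.48 in MRL and 3.71, 3.31, 3.48 and 3.45 in C57, with MRL replicate 1 alone above the others. Cdkn1a, the cell cycle inhibitor p21, had 8.23, 9.34, 10.97 and 9.89 in MRL and 11.16, 10.5, 10.28 and 10.37 in C57 (-0.97 ± 0.40, limma adjusted p = 0.42), and without MRL replicate 3 its difference was -1.42 (limma adjusted p = 0.0389). The strains overlapped in both genes with all arrays in. None of 22 cell cycle inhibitors and p53 targets, 19 apoptosis genes, 16 heat shock chaperones, 15 endoplasmic reticulum stress genes, 22 immediate early factors and 13 clock genes was called. Their medians were -0.17, -0.11, -0.02, -0.02, -0.09 and 0.19. Without the library labelled MRL day 5 infarct replicate 3, the apoptosis gene Casp12 was called higher (1.15, limma adjusted p = 0.0426, against 0.0513 with it). A probe set of the cell cycle gene Ccnd2, not its brightest, was then called lower (-1.94, limma adjusted p = 0.00541, against 0.159).

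Marker lists of cell types gave the following levels, as the mean log2 intensity of the list on each array. Neutrophil markers were at 6.4, 7.41, 7.54 and 7.25 in MRL and 7.27, 7.33, 8.2 and 8.04 in C57. The groups overlapped. Of 20 neutrophil markers on the array 8 were tested, and 2 of these (Il1r2 and Lcn2) were called lower, beside 38 of all 7512 genes. Of the 8 differences 3 were above 0, and the median was -0.66. Inflammatory monocyte and macrophage markers were at 6.64, 7.08, 5.71 and 6.31 in MRL and 5.53, 5.62, 7.55 and 6.68 in C57. Of 38 tested, 0 were called (median 0.21), and C57 replicate 3 and MRL replicate 2 were highest. Smooth muscle and myofibroblast markers were at 8.15, 8.07, 8.28 and 7.86 in MRL and 7.9, 7.74, 7.33 and 7.38 in C57. Only C57 replicate 1, at 7.90, reached into the MRL range. Myl9 was the 1 called of 15 (median 0.45), and Mylk and Notch3 were called higher too without the library labelled MRL day 5 infarct replicate 3. Acta2, the smooth muscle actin, had a difference of the other sign (-0.63 ± 0.31, limma adjusted p = 0.567). Endothelial markers were at 8.39, 8.5, 8.73 and 8.17 in MRL and 8.6, 8.64, 8.77 and 8.84 in C57. Esam, an adhesion molecule of endothelial junctions, was the 1 called of 21 (median -0.32) and had 8.93, 8.92, 9.24 and 8.73 in the MRL arrays, against 9.86, 9.4, 9.88 and 9.7 in the C57 arrays (-0.75 ± 0.17, limma adjusted p = 0.0413), a call lost without any 1 of 6 of the 8 arrays (up to 0.129). Immediate early factors were highest in MRL replicate 3, at 7.06, 7.46, 9.39 and 7.88 in MRL and 8.34, 7.81, 8.16 and 8.33 in C57. That array also had the highest Il6 and Il1b and the lowest Nppa of the MRL arrays, and the part of such differences between hearts in the strain comparison was not tested.

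Other cell types gave few markers above the filter, and none was called by its brightest probe set. Tested and not called were 11 resident macrophage markers (median 0.24), 4 T and NK cell markers (-0.11), 5 epicardial markers (-0.25), 3 platelet markers (-0.70), 4 erythroid markers (0.01) and 7 adipose markers (-0.07). The same held for 7 atrial and conduction markers (0.23), 2 B cell markers (0.34), 2 mast cell and eosinophil markers (-0.05) and 1 nerve marker (-0.20). Ighm, the heavy chain of immunoglobulin M, had 9.09, 6.01, 6.0 and 6.12 in MRL and 6.29, 5.72, 6.01 and 5.88 in C57, high on MRL replicate 1 alone. Without the library labelled MRL day 5 infarct replicate 3 the adipose marker Thrsp, a regulator of fat synthesis, was called higher (2.92, limma adjusted p = 0.043, against 0.0528 with it). Of the erythroid probe sets 1 of 3 that carry the symbols of both alpha-globin genes was called higher, with 11.2, 12.75, 11.94 and 11.86 in the MRL arrays, against 7.33, 7.99, 8.14 and 7.97 in the C57 arrays (4.08 ± 0.53, limma adjusted p = 0.000205). The other 2 were bright in both strains and not called (-0.28 and 0.32), and the called one differed by 4.44 in unoperated hearts.

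**Figure D3:**
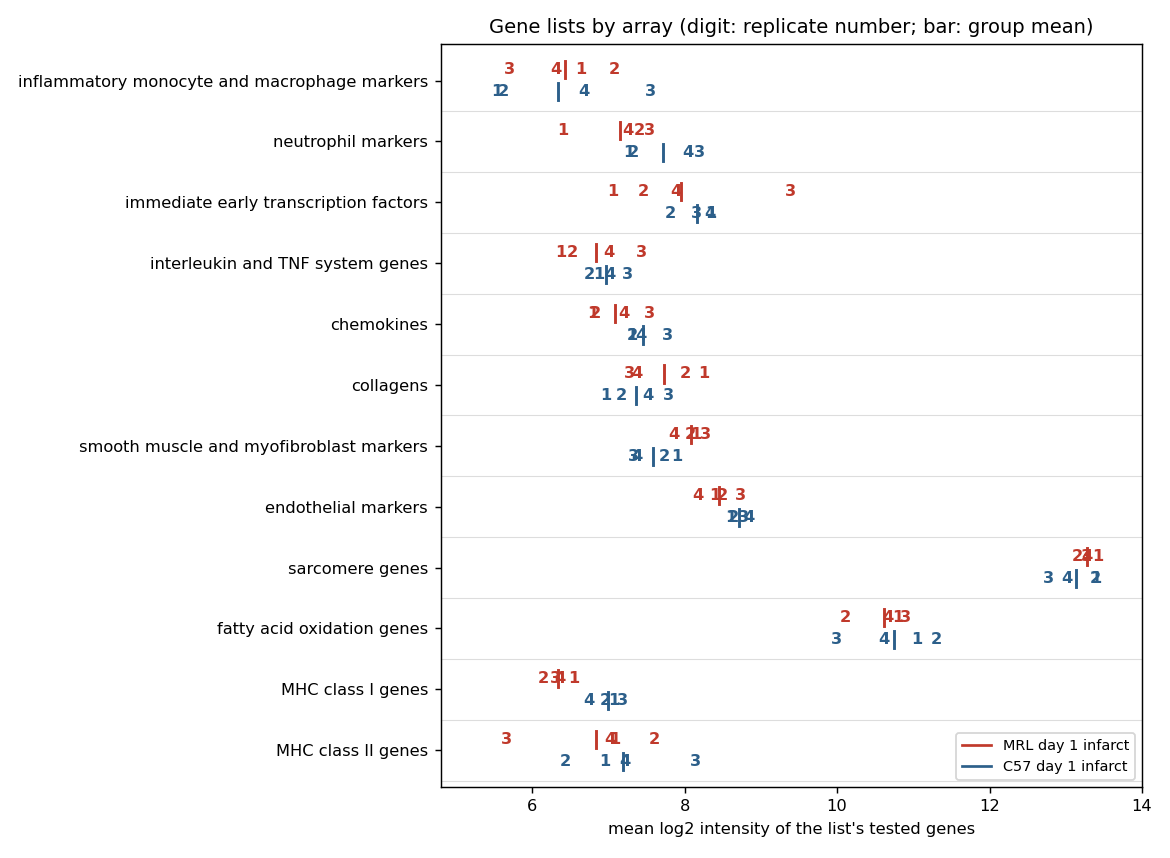
Mean log2 intensity of the tested members of each list on the 8 day 1 infarct arrays, with the digit of each replicate at its value, bars at the group means, and MRL in red above C57 in blue. Of the 12 lists drawn the strains do not overlap in MHC class I genes, where MRL spans 6.15 to 6.54 and C57 6.75 to 7.18. They overlap in the other 11. The class I gap is not shared by the whole list, as 5 of its 9 differences were above 0 (median 0.12). H2-D1 and H2-K1 differed by -4.56 and -3.25. In macrophage markers the C57 arrays span 5.53 to 7.55.

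Several genes had probe sets that disagreed. Of the 128 called probe sets, 111 have 1 symbol and name 95 genes, of which 48 had 1 tested probe set and 47 had several. In 33 of the 47 all probe sets of the gene differed in 1 direction and in 14 they did not. All probe sets were called the same way in 6 genes, which were Glo1, Rsad2, Pttg1, Tmem144, Wdfy1 and Dpep1. H2-D1 had 4 probe sets called lower (-4.56, -2.99, -1.91 and -1.63) and 1 called higher (4.31). H2-K1 had 2 called lower (-5.87 and -3.25) and 2 not called (-0.66 and -0.26). Ywhaz had probe sets called in both directions (2.36 against -2.34 and -1.79). The following were chosen after their values were seen. Rgs5, a pericyte regulator of G protein signals, had a called probe set at -3.56 and its brightest at -0.27. Sdc4, the heparan sulfate proteoglycan syndecan 4, had a called probe set at -2.45 and another at 1.51. Adamts4, an aggrecan-cleaving protease, had a called probe set at -3.12 and its brightest at 0.50. For such genes the direction rests on the probe set chosen, and whether sequence differences between the strains lie under the probes was not tested.

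**Figure D4:**
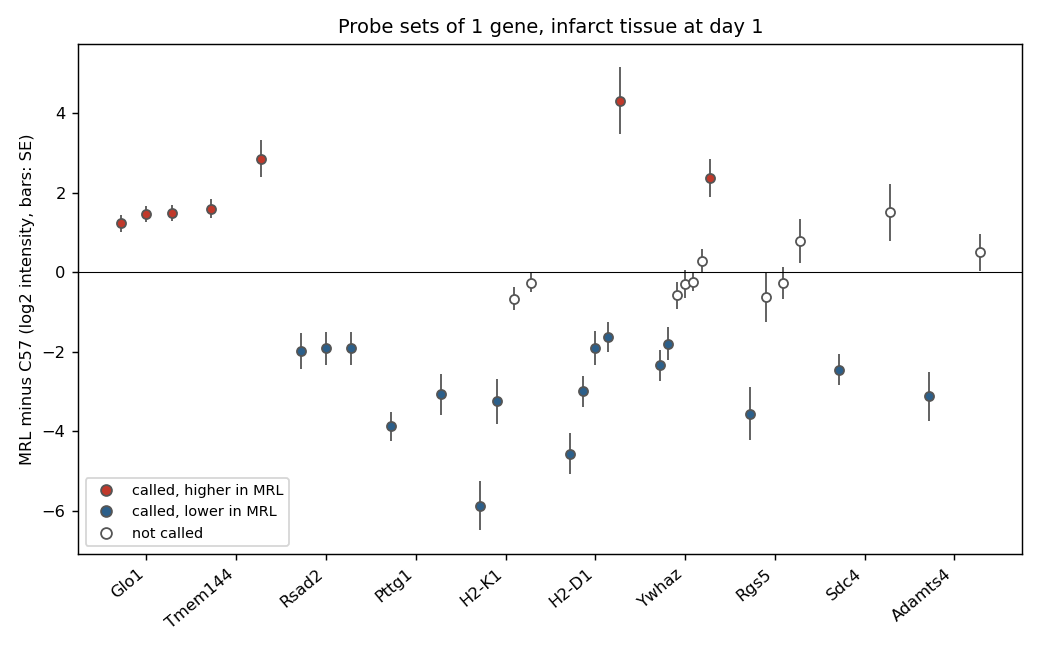
Difference (MRL minus C57, log2 intensity) of each tested probe set of selected called genes, with error bars of 1 SE, red and blue for probe sets called higher and lower in MRL and open for those not called. Probe sets of Glo1 lie together on the side of MRL, while those of H2-D1 and Ywhaz lie on both sides of 0.

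Many of the day 1 differences were present in unoperated hearts. At day 0, 137 probe sets were called (1.07%), 86 higher (0.67%) and 51 lower in MRL (0.397%), and 50 were called in the same direction on both days, which is 39.1% of the day 1 calls and 36.5% of the day 0 calls. None was called in opposite directions. Of the 128 day 1 calls 120 had the same sign at day 0 (93.8%, against 58.0% of all tested probe sets), and 38 had a day 0 difference under 0.5 in size. Without the library labelled MRL day 5 infarct replicate 3, 187 were called at day 0 (1.46%; 106 higher, 0.826%) and 80 were shared. At day 5, 88 probe sets were called (0.686%), 23 higher (0.179%) and 65 lower in MRL (0.506%), and 27 were shared with day 1 (21.1% of the day 1 calls). Without that library, which is in the day 5 group itself, 310 (2.42%; 165 higher, 1.29%, and 145 lower, 1.13%) were called at day 5 and 82 were shared (44.8% of the 183 day 1 calls). Among the called genes above, Lcn2, Il1r2, Myd88, Mmp3, Nts and Uchl1 had day 0 differences of 0.14, -0.01, -0.16, -0.06, -0.06 and -0.21.

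**Figure D5:**
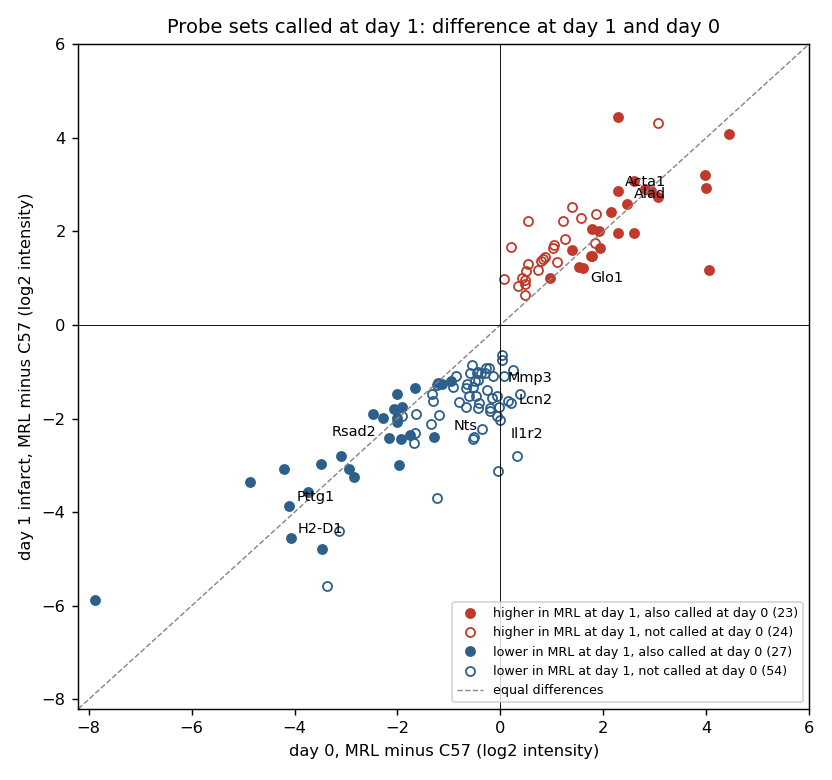
Difference between the strains (MRL minus C57, log2 intensity) at day 1 against that at day 0, for the 128 probe sets called at day 1. Filled points were also called at day 0, the dashed line marks equal differences, and 120 of the 128 have the same sign on both days.

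Whether the strain difference itself changed with infarction was tested as the day 1 difference minus the day 0 difference. It was called for 6 of 12834 probe sets (0.0468%), while 478 had an unadjusted p under 0.05. All 6 were lower, with the MRL excess of unoperated hearts gone or smaller at day 1. Angpt1, a ligand of the endothelial Tie2 receptor, averaged 4.88 in MRL and 2.98 in C57 at day 0, and 2.85 in MRL and 2.87 in C57 at day 1 (-1.92 ± 0.28, limma adjusted p = 0.00438). Kcnj5, a subunit of the acetylcholine-gated potassium channel, averaged 4.52 in MRL and 3.11 in C57 at day 0, and 3.06 in MRL and 3.01 in C57 at day 1 (-1.36 ± 0.20, limma adjusted p = 0.00438). Both were below every array median at day 1. The limma adjusted p of this test was 0.693 for Il1r2, 0.718 for Lcn2, 0.723 for Mmp3 and 0.771 for Nts, so their day 1 differences were not shown to differ from those at day 0. Without the library labelled MRL day 5 infarct replicate 3, 8 were called (0.0624%), 1 higher (0.0078%) and 7 lower (0.0546%), and Lcn2 was among the lower (limma adjusted p = 0.0454). Leaving out MRL replicate 3 gave 16.

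The noninfarct tissue of day 1 also differed between the strains. In the fit of all 46 arrays, 267 of 13138 probe sets were called in noninfarct tissue (2.03%), 135 higher (1.03%) and 132 lower in MRL (1%). In infarct tissue 275 were called (2.09%), 113 higher (0.86%) and 162 lower (1.23%), of which 139 were shared (50.5% of the infarct calls and 52.1% of the noninfarct calls). All 128 probe sets called in infarct tissue had the same sign in noninfarct tissue, against 70.4% of all tested, and the tissues may come from the same hearts. Acta1 differed by 2.24 there, Lcn2 by -1.46, Mmp3 by -1.40 and Il1r2 by -0.20. The test of strain by region called 0 probe sets with limma (0%), with 192 at an unadjusted p under 0.05 and a smallest adjusted p of 0.701. Without the 2 libraries that go against their strain label 384 were called in noninfarct tissue (2.93%), 184 higher (1.4%) and 200 lower (1.52%), and the test of region called 1, higher (0.00762%). For that test leaving out single arrays gave 0 to 4 calls, with 2 without MRL replicate 1, 4 without MRL replicate 3, and 1 without C57 replicate 1 or 2.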

How the data were processed

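RNA from 46 mouse heart samples was hybridised to Affymetrix MOE430A arrays, with 4 arrays per group of strain, day and region (3 for C57 at day 0). The deposited values are linear intensities that the authors made with GCRMA, per the submitters' processing notes; its version is not given in the sources used here. They were not on a log2 scale as deposited, the lowest being 1.03, so log2 was taken with no pseudocount. The number of arrays limits the precision. Probe sets were named from the platform annotation: of 22690, 64 are controls, and of the others 20380 have 1 gene symbol, 691 several and 1555 none.

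A probe set was tested if it lay above its own array's median on at least 3 arrays of the fit. limma 3.58.1 in R 4.3.3 (lmFit, eBayes) was fitted to the 23 infarct-region arrays with 1 mean per group, or to all 46 arrays for the test of region, with Benjamini-Hochberg adjustment over 12834 or 13138 probe sets and a threshold of 0.05. The script was tested on simulated data. A gene is represented by its tested probe set of 1 symbol with the highest mean over all arrays. Named genes are the 15 largest differences in each direction without overlap, up to 5 called members per list (up to 3 bright members where fewer than 2 were called), up to 6 per direction of the tests of infarction and region, and index genes. The members and lists were chosen with earlier results of these data known. In all 6 comparisons were made. Alternatives were other filters, arrays in the fit, scalings, an offset of 32, a trended prior, a replicate block, and each replicate left out.

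Promoters are RefSeq's (GRCm38.p6). P-values measure the spread between arrays that the labels call biological replicates.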

Additional observations from a re-analysis of the deposited data

Results flagged for a closer look

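Of 394 groups of 4 arrays looked at, 21 had 1 array whose gap to its nearest neighbour passed the critical value of Dixon's test. Chance alone gives about 1 in 20. Each group was a gene, a list or an array measure in 1 strain at day 1. The array measures were the median and the 3' minus 5' values of Gapdh and beta-actin, and none of them was among the 21. MRL replicate 1 was set apart in 8: it was high in Ighm (9.09), B cell and plasma cell markers (6.65), Mki67 (5.61), Myh7 (11.43), C1qb (8.31) and Ifi27l2a (7.85), and low in heat shock chaperones (10.77) and Angpt1 (2.80). MRL replicate 3 was set apart in 5: it was low in Nppa (12.37), H2-Aa (4.02) and Wdfy1 (7.20), and high in Hbb-b2 (5.32) and in cell cycle inhibitors and p53 targets (7.84). MRL replicate 2 was low in Aldoa (13.31). C57 replicate 1 was low in Hspb7 (12.96) and in glycolysis and hypoxia genes (10.13), and high in Kcnj5 (3.15). C57 replicate 3 was high in Calr (12.51), Sparc (11.98) and Fstl1 (10.28), and low in Plin4 (8.14).

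The strain difference at day 1 minus that at day 0, tested as an interaction term in limma, was called for 6 probe sets: Angpt1 (-1.92), Kcnj5 (-1.36), Ociad1 (-1.38), Plekhh1 (-2.56) and 2 with no single gene name (-1.97 and -2.87).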

How the results depend on the processing

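The counts recomputed under the alternatives were the 128 calls (47 higher, 81 lower in MRL) and the 50 shared with day 0. The 6 of strain by infarction and the 0 of strain by region were recomputed too. On the 8 arrays alone there were 53 calls (20 higher, 33 lower). On 46 arrays there were 275 (113 higher, 162 lower), with 83 shared with day 0 and 13 of strain by infarction. Without the day 5 infarct pair that stood apart there were 223 (86 higher, 137 lower) and 93 shared. Without the libraries against their strain label, chosen after seeing the data, 80 were shared and strain by region called 1. With no filter strain by infarction called 12, and with a stricter filter 1. Leaving out 1 replicate at a time gave 80 to 225 calls, 30 to 64 higher, 39 to 165 lower, 30 to 47 shared, 4 to 16 of strain by infarction and 0 to 4 of strain by region. Quantile normalization, array centring, the offset and the trend stayed within 1.5 times for these counts. The median difference was 0.006 with quantile normalization and 0.025 with centring, against 0.001 in the main fit. The cause of these changes was not tested.

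With the replicate number as a block, 107 were called (37 higher, 70 lower), with 47 shared and 6 of strain by infarction. The numbers share no pairing across strains, since same-numbered MRL and C57 arrays had correlations of -0.13, -0.44, -0.43 and -0.08. Arrays of the same strain, day and replicate number were also taken as a block, chosen after seeing the data, and strain by region called 0. The labels do not say that such arrays share a heart. Same-numbered infarct and noninfarct arrays of day 1 had correlations of 0.48, 0.34, 0.56 and 0.40 in MRL. In C57 these were 0.10, -0.46, 0.15 and -0.27. The same-numbered array was the best match for every MRL infarct array and for no C57 infarct array. The block may therefore not stand for hearts in C57, and its result is no check of the test of region.

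Of 151 named genes 40 were called, 16 of them under every alternative that gave a value, 17 were lost without at least 1 array, and 19 of the 39 tested on the 8 arrays alone were called there. With 46 arrays Ppbp was called (-2.24, limma adjusted p = 0.0227).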
